A study of Mus musculus with 2 samples.

Results

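Bone morphogenetic proteins (BMPs), their extracellular antagonists and the tolloid proteases were examined in mouse ureters in which the secretion of WNT proteins was blocked. The group comprises 10 genes of the 29924 gene names on the array. They are the ligands *Bmp2*, *Bmp4*, *Bmp5* and *Bmp7*, the antagonists and modulators *Grem1*, *Nog*, *Chrd* and *Bmper*, and the proteases *Tll1* and *Bmp1*. These genes were chosen with earlier results of the same data known, so their counts are set beside those of all probes as a description. All array probes that carry one of these names were taken, irrespective of their values, which gave 15 probes. In 6 genes there was 1 probe, and 4 genes had several.

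Ureters were explanted from embryos of the outbred NMRI strain at E11.5 and kept in culture for 18 h. Treated explants received 10 µM IWP-2, an inhibitor of the acyltransferase PORCN that WNT proteins need for their secretion, and control explants received the solvent DMSO alone. RNA of a pool of treated ureters and of a pool of control ureters was hybridised together on a two-colour array, on 2 arrays with swapped dyes. In all there were 2 treated and 2 control pools, and 1 of each per array. Each pool held the ureters of many embryos, with all their tissues together, and no genetic change was present in any group. Array, pool and dye orientation cannot be told apart where the arrays differ. Slide and scan were the same for both arrays.

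BMPs are secreted growth factors of the TGF-beta superfamily. They bind pairs of type I and type II serine-threonine kinase receptors, which phosphorylate the SMAD1, SMAD5 and SMAD9 proteins, and these enter the nucleus with SMAD4 to activate targets such as the *Id* genes. Noggin, gremlin and chordin bind the ligands outside the cell and keep them from the receptors. Tolloid proteases cut chordin and so free the bound ligand, and they also process fibrillar procollagens. In the embryonic ureter, *Bmp4* from the mesenchyme around the epithelial tube is required for smooth muscle and urothelial differentiation.

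The probes are single-stranded DNA of 60 bases. Where a gene had several probes, the last 30 bases of each are shown, because the probes of 1 gene gave different values and the reader needs to know which stretch each one detects. The files give their positions on mouse build mm9. The polyadenylation signal AATAAA is in capitals. It occurred in 4 of the 15 member probes, of which the fourth is that of *Bmp2*, and in 12.6% of the 39429 probes on the array. No annotation of that build was used, so the exons and untranslated regions below the probes are not given.
Tll1 probe at base 503: gaacactgtccctagagccccgcatatcca
Tll1 probe at base 4868: gagacttgagactttttagatatttcaaga
Bmp1 probe at base 2103: atttgacttcttcgagactgagggcaatga
Bmp1 probe at base 2645: ggacccctgcgtcctgctcctttctcttgc
Bmp1 probe at base 3691: caccccagccAATAAAcagaaagtgttaca
Chrd probe at base 1887: atacacataAATAAAatgatataaaaaccc
Chrd probe at base 2277: cgcagtagagacctccccagcctaccaaat
Bmp4 probe at base 1738: tccctatagctggacttttatcttaaaaaa
Bmp4 probe at base 1931: gaaAATAAAatgagtcattattttaaagat
The *Tll1* probes lie at chr8:66684228-66684287 (base 503) and chr8:66493567-66493626 (base 4868) on the minus strand. From the outer end of the first to the outer end of the second this is 190.7 kb of the genome. The *Bmp1* probes lie at chr14:70890355-70890414 (base 2103), chr14:70886415-70886474 (base 2645) and chr14:70874370-70874429 (base 3691), also on the minus strand. In the files, the middle one is assigned to a non-coding RefSeq transcript and the outer ones to the coding transcript. The *Chrd* probes lie on the plus strand at chr16:20738166-20738225 (base 1887), under an Ensembl transcript, and at chr16:20739049-20739221 (base 2277), under the RefSeq transcript. The latter 60 bases stretch over 173 bases of the genome and so cross a junction. The *Bmp4* probes lie on the minus strand at chr14:47003391-47003450 (base 1738) and chr14:47003198-47003257 (base 1931), 193 bases apart both along the transcript and in the genome.

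Values are normalised intensities of the pools and log2 ratios, IWP-2 over control, taken within each array. Intensities include an offset of 50 that was added in background correction, so probes without signal read just under 100. The limma fit tested the mean ratio of the 2 arrays against 0 for 26947 probes with signal, with Benjamini-Hochberg adjustment over all of them (false discovery rate, FDR). It called 331 probes lower (1.23%) and 222 probes higher (0.824%). The median ratio of all these probes was -0.01, and the median standard deviation (SD) between the arrays was 0.11. The share of spots well above background was 68.6% to 70.7% per channel. The number of arrays limits the precision, and an exact two-sided sign permutation over 2 arrays cannot give a p-value under 0.5.

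Of the 15 member probes 14 had signal. At FDR 0.05 in limma, 4 of these were lower in IWP-2-treated ureters, from *Tll1*, *Bmp5*, *Bmp4* and *Bmper*, and 0 were higher. With no adjustment, 7 member probes were lower and 1 higher (*Bmp2*) at a limma p under 0.05, against 4.98% and 7.86% of all 26947 probes. Lower values on both arrays were found for 10 of the 14 probes, higher values on both for 1, and 3 differed in sign between the arrays. Over all probes these shares were 28.8%, 26.8% and 44.4%. Both counts of lower probes include *Tll1* at base 503, which was kept through its control channels alone. By gene, with the brightest probe, 6 of 10 members were lower and 1 higher at the unadjusted p, against 4.74% and 8.77% of 20119 genes. On both arrays 8 of the 10 were lower and 1 higher, against 27.5% and 28.5%. The median ratio of the 14 was -0.35. A second criterion, without a test, asked for a change of at least 2-fold in the same direction on each array and, in the brighter channel, for 100 or more units of processed intensity. It selected 61 of 18798 bright probes as lower (0.325%), and 1 member probe, that of *Tll1* at base 4868. A lower signal in a pool may come from fewer cells of a type or from less RNA per cell, and these cannot be told apart here.

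**Figure D1:**
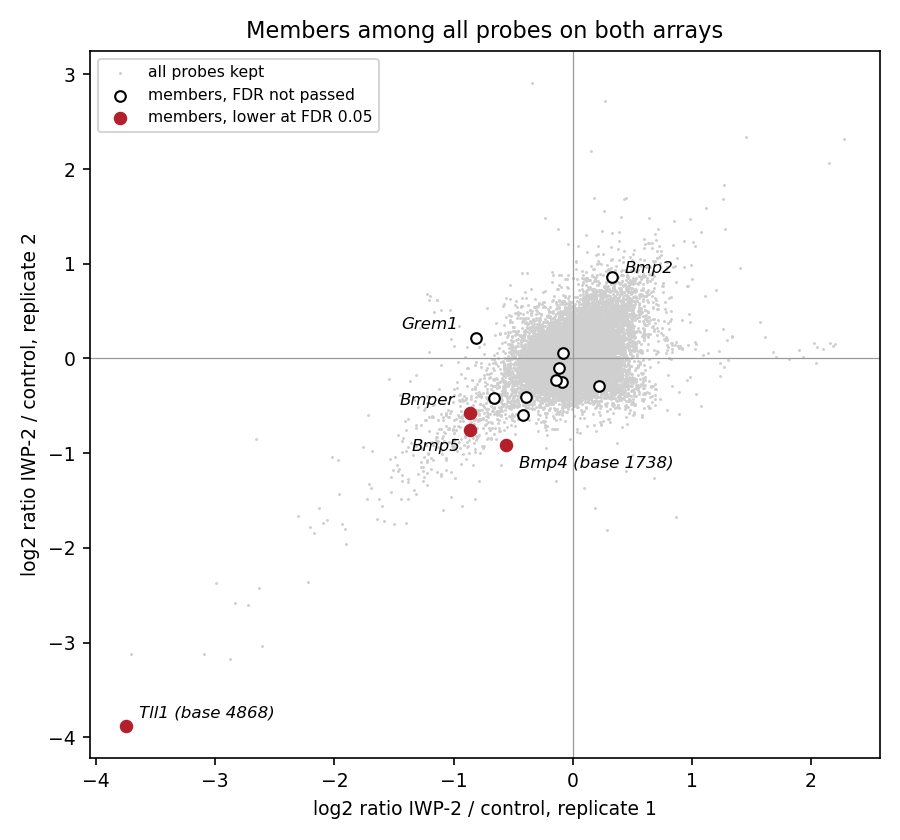
Log2 ratio of IWP-2-treated over control on replicate 1 (x axis) against replicate 2 (y axis) for the 26947 probes with signal (grey) and the 14 member probes (circles, filled where lower at FDR 0.05 in limma). The *Tll1* probe at base 4868 lies at the lower left end of all probes, at -3.75 and -3.88, whereas *Grem1* was lower on replicate 1 and higher on replicate 2.

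Among the ligands, *Bmp5* and *Bmp4* were lower after IWP-2, by 1.75-fold and 1.66-fold, *Bmp7* did not pass the test, and *Bmp2* was the only member with a higher signal on both arrays. *Bmp4* was measured by 1 of its probes. At base 1738 the treated pool read 76370 and the control pool 112500 on replicate 1, and 58260 and 109500 on replicate 2. Both treated pools were thus below both control pools, and none of the member spots was saturated. The ratios of -0.56 and -0.91 averaged -0.73 ± 0.25 (mean ± SD of the log2 ratio, n = 2; adjusted p 0.0285 in limma). The other *Bmp4* probe, at base 1931, read between 77.3 and 84.2 in the 4 pools. It had 0 spots above background in any channel and gave no ratio that could be used. With 85.0% A or T it is richer in these bases than the probe at base 1738 (61.7%) and than the median probe of the array (58.3%).

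*Bmp5*, a ligand close to *Bmp7* in sequence, was measured at chr9:75746444-75746503 (base 2147, plus strand). The treated pool read 953 and the control pool 1730 on replicate 1, and 1114 and 1880 on replicate 2. The pools did not overlap, and the arrays differed little. The mean ratio was -0.81 ± 0.07 (adjusted p 0.0116 in limma), with a 95% interval of -1.05 to -0.57.

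*Bmp7*, a ligand made by the ureteric epithelium and nephron progenitors, was measured at chr2:172695203-172695262 (base 1920, minus strand). Intensities were 2602 in the treated and 2765 in the control pool of replicate 1, and 3570 and 4233 on replicate 2. Each treated pool was slightly below the control of its array. The ratio of -0.17 ± 0.11 did not pass the test (adjusted p 0.663 in limma), and its 95% interval of -0.41 to 0.08 includes 0.

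*Bmp2* belongs to the same ligand subfamily as *Bmp4* and was measured at chr2:133388260-133388319 (base 3193, plus strand). On replicate 1 it read 1085 in the treated and 864 in the control pool, and on replicate 2 it read 1530 and 844. Both treated pools were above both controls, but the ratios of 0.33 and 0.86 differed more than those of *Bmp5*. The mean of 0.59 ± 0.37 had an adjusted p of 0.0950 in limma. *Bmp2* and *Bmp4* thus had ratios of opposite sign on each array, and the difference between these genes was not tested.

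**Figure D2:**
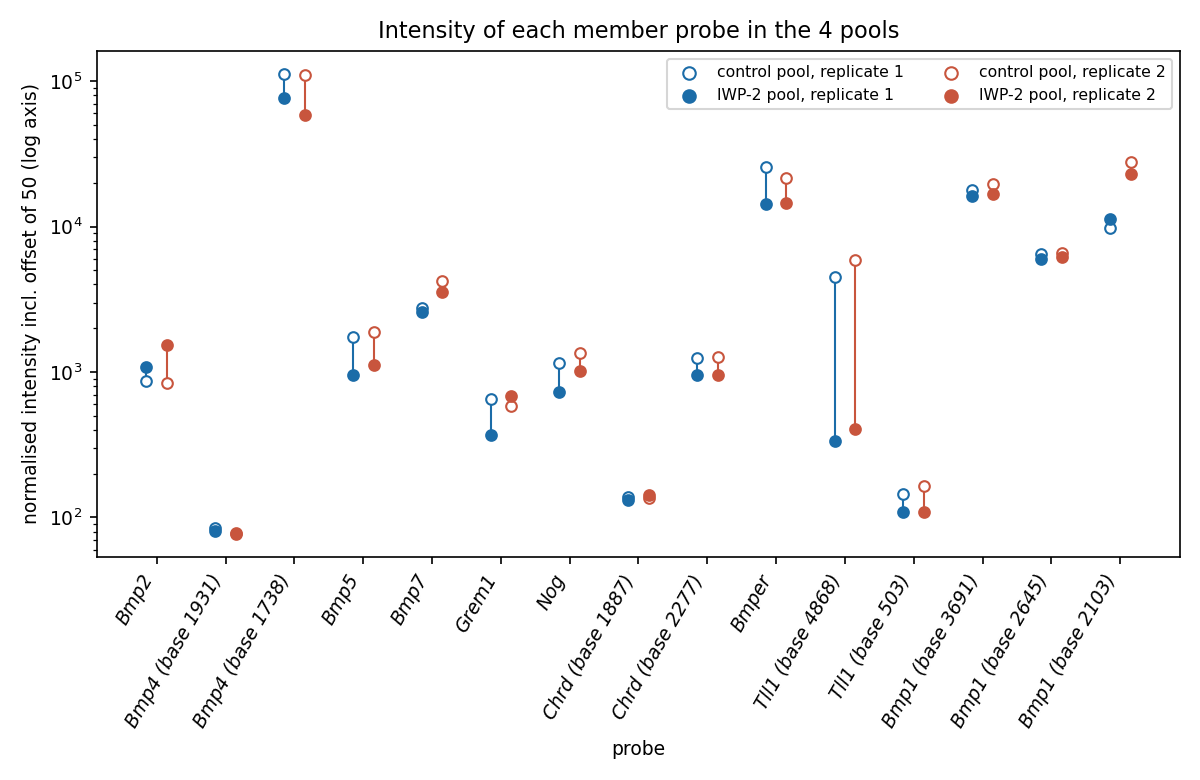
Normalised intensity (y axis, log scale, offset of 50 included) of the 15 member probes (x axis) in the control pools (open) and IWP-2 pools (filled) of replicate 1 (blue) and replicate 2 (red). The line joins the pools of 1 array. *Tll1* at base 4868 goes from 4484 and 5912 to 334 and 403, while *Tll1* at base 503, *Chrd* at base 1887 and *Bmp4* at base 1931 lie near background in every pool. Levels of different probes are not comparable.

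Among the antagonists, *Bmper* was lower by 1.64-fold, and *Nog*, *Chrd* and *Grem1* did not pass the test. *Bmper* encodes a secreted protein with chordin-like cysteine-rich repeats, which can lower or raise BMP activity. Its probe at chr9:23289301-23289360 (base 3447, plus strand) read 14260 in the treated and 25840 in the control pool of replicate 1, and 14460 and 21560 on replicate 2. The 2 treated pools were nearly equal and below both controls. The ratio was -0.72 ± 0.20 (adjusted p 0.0260 in limma), after 1 outlier spot had been dropped on each array.

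*Nog* encodes noggin, which covers the receptor-binding faces of BMP ligands. At chr11:89162849-89162908 (base 965, minus strand) it read 732 in the treated and 1154 in the control pool of replicate 1, and 1017 and 1354 on replicate 2. The treated pools were again below both controls. The ratio of -0.53 ± 0.17 had an adjusted p of 0.0629 in limma and a 95% interval of -0.79 to -0.28.

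Chordin, encoded by *Chrd*, is the classical substrate of tolloid proteases. At base 2277 it read 954 in both treated pools, against 1249 in the control pool of replicate 1 and 1263 in that of replicate 2. The arrays were nearly alike, with a ratio of -0.40 ± 0.01, and the adjusted p was 0.121 in limma. At base 1887 all 4 pools lay between 131 and 142, little above background, and the ratio of -0.01 ± 0.10 had an adjusted p of 0.995 in limma. The probes of *Chrd* therefore differed by -0.31 on replicate 1 and -0.46 on replicate 2.

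*Grem1* encodes gremlin, an antagonist of BMP2, BMP4 and BMP7 that the kidney needs for outgrowth of the ureteric bud. At chr2:113589227-113589286 (base 1184, minus strand) it read 370 in the treated and 649 in the control pool of replicate 1, but 684 and 588 on replicate 2. The arrays thus gave ratios of opposite sign, -0.81 and 0.22. The SD of 0.73 was the largest of the members, and the mean of -0.30 did not pass the test (adjusted p 0.733 in limma). On both arrays the spots of the probe agreed closely among themselves, between -0.88 and -0.71 on replicate 1 and between 0.18 and 0.25 on replicate 2. For markers of kidney mesenchyme the median ratio also changed sign, from 0.19 on replicate 1 to -0.28 on replicate 2. *Six2* had 1.03 and -0.38 and *Foxd1* 0.89 and -0.36, each opposite in sign to *Grem1*. Other markers of the list kept their sign, with 3 of the 10 higher and 2 lower on both arrays. Those past FDR 0.05 were among them, *Meox1* at a mean of 0.96 (adjusted p 0.0168 in limma) and *Osr1* at -0.56 (adjusted p 0.0412 in limma). All 10 of these markers had signal, and their intensities summed to 108600 for the treated and 91830 for the control pool on replicate 1, and to 99880 and 113400 on replicate 2. Their part in the *Grem1* values was not tested.

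**Figure D3:**
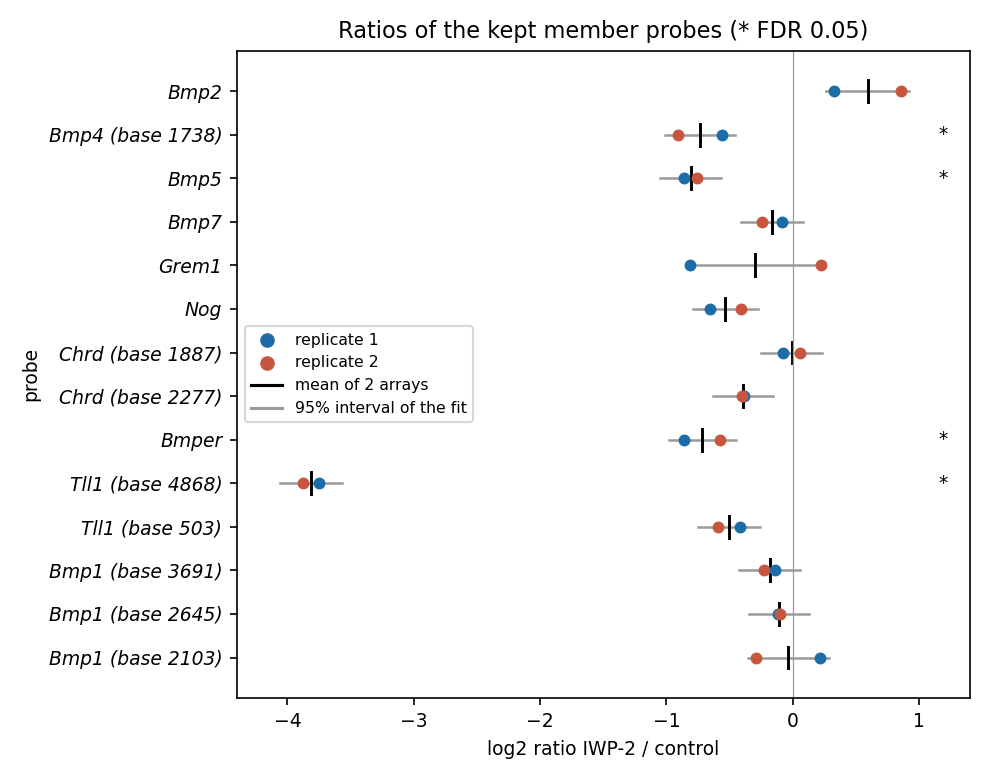
Log2 ratio of IWP-2-treated over control (x axis) for the 14 member probes with signal (y axis) on replicate 1 (blue) and replicate 2 (red), with the mean (black line) and the 95% interval of the limma fit (grey). Asterisks mark FDR 0.05. The 4 probes so marked have both arrays below 0, and *Bmp2* alone has both above 0.

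Of the proteases, *Tll1* was strongly lower at 1 of its probes, and *Bmp1* did not pass the test. *Tll1*, the gene of the tolloid-like protease 1, fell at base 4868 from 4484 in the control to 334 in the treated pool of replicate 1, and from 5912 to 403 on replicate 2. The pools were far apart on both arrays. The ratios of -3.75 and -3.88 averaged -3.81 ± 0.09 (adjusted p 2.887e-05 in limma), or 14.0-fold lower, with a 95% interval of -4.06 to -3.57. This was rank 1 from the lowest among the 26947 probes. The spots of the probe ranged from -3.78 to -3.72 on replicate 1, where 1 of 4 was an outlier and was dropped, and from -3.93 to -3.82 on replicate 2.

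At base 503, near the other end of the transcript, *Tll1* read 109 in both treated pools against 145 in the control pool of replicate 1 and 165 in that of replicate 2. These ratios of -0.42 and -0.59, with a mean of -0.51 ± 0.12, had an adjusted p of 0.0655 in limma. On neither array did the treated signal stand well above background. With the lowest signal that counted as above background in its place, the fall was 1.37-fold. This value is not a lower limit. The interval of the limma fit ran from -0.75 to -0.26, and the deposited fold changes gave a ratio of -0.32. The upper end of that interval and the latter ratio are smaller falls. The difference between the *Tll1* probes was -3.33 on replicate 1 and -3.28 on replicate 2. It was the widest among the 5378 genes with at least 2 probes with signal, whose median spread was 0.08. Since the control pools read only 145 and 165 at base 503, close to background, this difference does not show that the ends of the transcript changed unequally. In the processed intensities of the scanner software, which carry no offset, the probe at base 503 gave -1.45 (adjusted p 0.0118 in limma) and that at base 4868 gave -4.13. At base 503 this rests on 4.94 against 12.3 on replicate 1 and 4.74 against 14.2 on replicate 2. That probe was kept through its control channels alone, which favours a lower ratio, so its p-values are not read as support for a fall.

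*Bmp1* encodes the founding protease of the family and, by alternative splicing, mammalian tolloid. None of its probes passed the test. With the deposited fold changes, the probe at base 2645 had a ratio of -0.14 and an adjusted p of 0.0492 in limma. Those fold changes are rounded to 1 decimal and gave 1770 lower and 1289 higher probes. Rounding can remove the spread between the arrays, so this value is not read as a change. At base 3691 *Bmp1* read 16280 in the treated and 17940 in the control pool of replicate 1, and 16730 and 19600 on replicate 2. The ratio was -0.18 ± 0.06 (adjusted p 0.575 in limma), with a 95% interval of -0.42 to 0.06. At base 2645, on the non-coding transcript, it read 5976 and 6489 on replicate 1, and 6193 and 6637 on replicate 2, which gave -0.11 ± 0.01 (adjusted p 0.834). Treated pools were slightly below the controls of their arrays at both positions. At base 2103 the arrays differed in sign, with 11350 in the treated and 9760 in the control pool of replicate 1, and 22850 and 27970 on replicate 2. The mean there was -0.04 ± 0.36 (adjusted p 0.982). On replicate 1, 1 of the 4 spots of that probe had a brightness of 97.6, at the level of no signal, beside 43240 to 65540 for the others. It lowered the mean intensity, and its ratio of 0.12 entered the mean ratio with equal weight. The bright spots had ratios from 0.19 to 0.33. The mean ratios of the *Bmp1* probes lay within 0.15 of each other, a wider spread than in 75.3% of the 5378 genes.

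**Figure D4:**
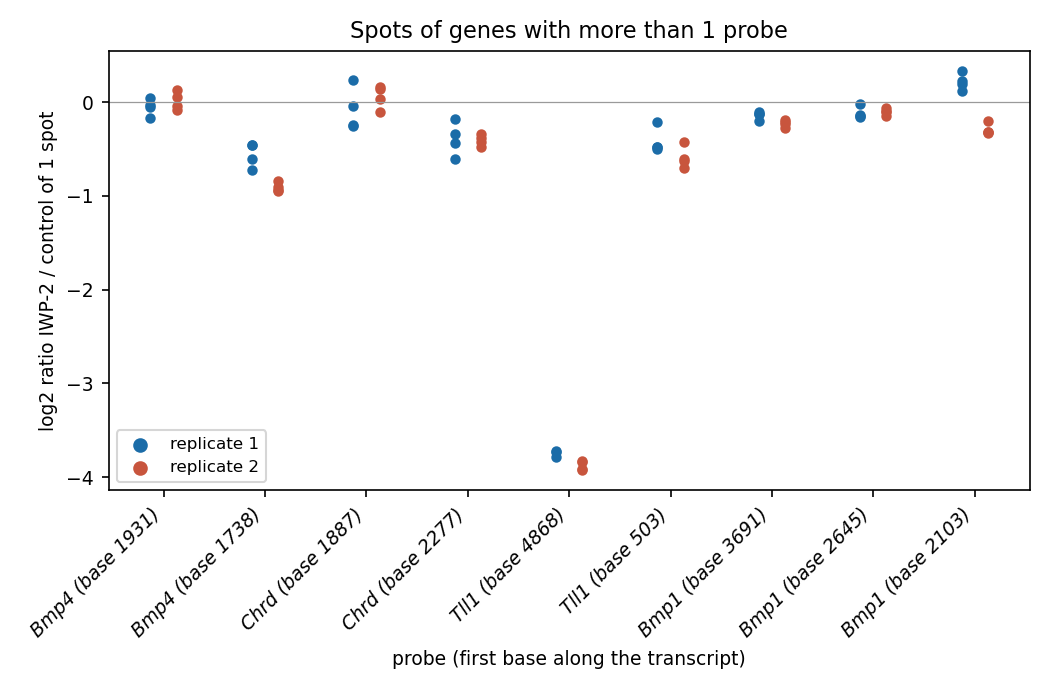
Log2 ratio of IWP-2-treated over control (y axis) of each spot without an outlier mark, for the probes of *Bmp4*, *Chrd*, *Tll1* and *Bmp1* (x axis, with the first base along the transcript), on replicate 1 (blue) and replicate 2 (red). Spots of *Chrd* at base 1887 on replicate 1 spread from -0.25 to 0.23, and those of *Tll1* at base 4868 lie between -3.93 and -3.72, below all others.

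The calls differed in how firmly they held. *Tll1* at base 4868 passed FDR 0.05 in limma under all of 11 alternatives except a model of the separate channels with a dye term, in which no probe of the array passed (adjusted p 0.253). With the rounded deposited fold changes its adjusted p in limma was 0.0492, the value that *Bmp1* at base 2645 also had. That pass is therefore not read as a sign of firmness. *Bmp5* lost its call in 3 of the 11 alternatives, and *Bmp4* and *Bmper* lost theirs in 5. Centring on the median in place of loess was among these (adjusted p 0.105, 0.693 and 0.195 in limma), while the ratios of these genes moved little.

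The 250 bases before the transcription start were read from a table of RefSeq promoters (GRCm38.p6). Of the 10 members 6 had an entry in this table, namely *Tll1*, *Bmp4*, *Bmp5*, *Bmper*, *Chrd* and *Grem1*. These 6 were searched on both strands for CTTTGA, the core that TCF and LEF factors recognise, which reads TCAAAG on the opposite strand. Of these members *Bmper* held it, with 1 match that begins 210 bases before the start. Among all 32851 promoters of the table, 13.8% held a match. A match is a string of letters and was not tested as a binding site. The promoters of *Bmper* (chr9:23222826-23223075, plus strand) and *Tll1* (chr8:64206009-64206258, minus strand) are shown as those with and without it among the lowered genes, with the match in capitals. They differ in base composition, with 71.6% C or G for *Bmper* and 43.2% for *Tll1*, against a median of 52.4%.
Bmper promoter: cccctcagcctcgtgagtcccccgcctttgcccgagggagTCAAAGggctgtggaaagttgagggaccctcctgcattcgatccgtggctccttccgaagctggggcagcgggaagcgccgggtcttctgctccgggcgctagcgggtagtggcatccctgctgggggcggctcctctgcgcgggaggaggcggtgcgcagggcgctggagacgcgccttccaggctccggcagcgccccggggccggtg
Tll1 promoter: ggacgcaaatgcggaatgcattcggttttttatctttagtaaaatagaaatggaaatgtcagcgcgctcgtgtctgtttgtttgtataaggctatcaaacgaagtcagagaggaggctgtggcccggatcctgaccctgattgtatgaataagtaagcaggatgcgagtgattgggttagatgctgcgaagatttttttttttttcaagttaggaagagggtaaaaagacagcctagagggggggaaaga

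The other genes of the pathway were described by lists, with the brightest probe of each gene. Over all 20119 genes with signal, 1.29% were lower and 0.929% higher at FDR 0.05 in limma, and the median ratio was 0.00. At an unadjusted p under 0.05 these shares were 4.74% and 8.77%, and 27.5% of genes were lower and 28.5% higher on both arrays. In the 10 members the median was -0.47. Of 12 other BMP and GDF ligands 10 had signal, and 2 of these were lower. They were *Gdf10*, at -2.01 ± 0.23 (adjusted p 0.000495 in limma), and *Gdf7*, at -0.97 ± 0.06 (adjusted p 0.00590 in limma). The median of this list was -0.09. Among 19 other extracellular BMP modulators 16 had signal. *Chrdl2*, a chordin-like antagonist, was lower at -0.95 ± 0.00 (adjusted p 0.00609 in limma), and the other 15 did not pass, with a median of the list at -0.10.

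Around the tolloid proteases, *Sfrp2*, a secreted WNT antagonist that also enhances tolloid activity on procollagen, was lower at -0.81 ± 0.08 (adjusted p 0.0116 in limma). It was 1 of 5 genes with signal among 6 tolloid relatives and enhancers, whose median was -0.48. *Pcolce2*, a procollagen C-proteinase enhancer, had -0.55 ± 0.12 and an adjusted p of 0.0513 in limma. *Tll2*, the third tolloid gene beside *Bmp1* and *Tll1*, had no signal above background. Of 13 known substrates of these proteases 0 were lower at FDR 0.05 in limma. At an unadjusted p under 0.05, 2 were lower, *Lox* at -0.45 and the fibrillar collagen gene *Col2a1* at -0.33, and 2 were higher. *Mstn*, the gene of myostatin, was higher at 0.66 ± 0.03 (adjusted p 0.0240 in limma). The other fibrillar collagen genes of the list, *Col1a1*, *Col1a2*, *Col3a1*, *Col5a1* and *Col5a2*, lay at -0.07, 0.10, -0.07, -0.05 and -0.10. None of the fibrillar collagen genes passed the test at FDR 0.05.

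Of 15 BMP receptors and SMADs 2 were lower. These were *Smad9*, at -1.14 ± 0.47 (adjusted p 0.0163 in limma), and the pseudoreceptor gene *Bambi*, at -0.53 ± 0.01 (adjusted p 0.0489 in limma). The type I and type II receptor genes *Bmpr1a*, *Bmpr1b* and *Bmpr2* had ratios of -0.12, -0.03 and 0.09, and the median of the list was -0.03. Among 12 targets of BMP signaling 6 were lower. *Msx1* had -0.96, *Id2* -0.88, *Atoh8* -0.86, *Id1* -0.82 and *Id4* -0.78, and *Bambi*, which is in both lists, was the sixth. *Hey1* was higher at 0.60. The median of the targets was -0.56, and 11 of the 12 were lower on both arrays. Of 10 targets of WNT signaling, listed for the treatment, 9 were lower, with a median of -0.95. That list was chosen with earlier results of these data known, so it is a description and not an independent check.

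**Figure D5:**
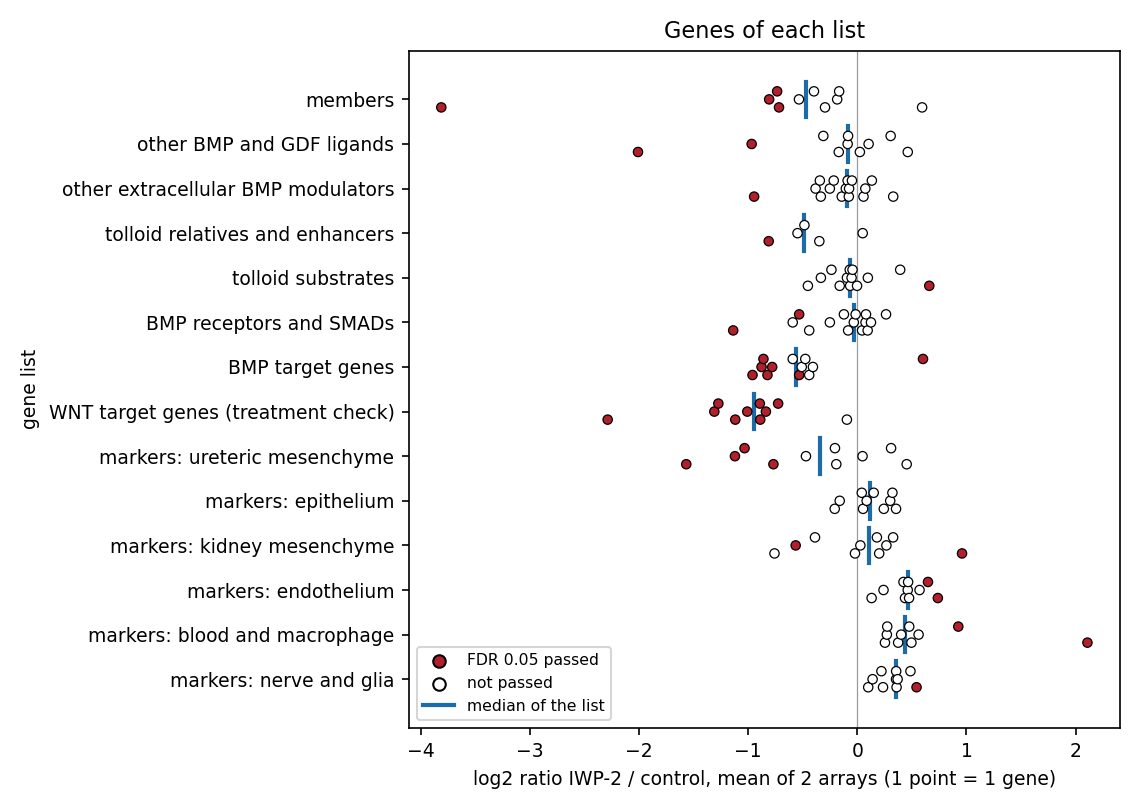
Mean log2 ratio of IWP-2-treated over control on 2 arrays (x axis) for each gene with signal (points, filled at FDR 0.05 in limma) of the lists named on the y axis, with the median of each list (blue line). The medians of the members (-0.47), the BMP targets (-0.56) and the WNT targets (-0.95) lie below 0, and those of endothelium (0.46), blood and macrophage (0.44) and nerve and glia (0.36) above it.

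The tissue of the label was present. All 10 markers of ureteric mesenchyme and all 10 of epithelium had signal. Of the former, *Foxf1*, *Tbx18*, *Tcf21* and *Tshz3* were lower at FDR 0.05 in limma, and the median was -0.34. At an unadjusted p under 0.05 in limma, 5 were lower and 2 higher. On both arrays, 7 of these 10 mesenchymal markers were lower and 3 higher. Their summed intensity was 431200 and 426700 in the treated pools, and 473100 and 457000 in the controls. Of the epithelial markers 0 passed FDR 0.05 in limma, and at an unadjusted p under 0.05 there were 0 lower and 3 higher, with a median of 0.12. Markers of other cell types had ratios mostly above 0. For endothelium all 10 were higher on both arrays, 2 of them at FDR 0.05 in limma, with a median of 0.46 and summed intensities of 123100 and 136900 in the treated against 79300 and 101600 in the control pools. For blood and macrophages 9 of 10 were higher on both arrays and 2 passed, with a median of 0.44 and sums of 545600 and 775200 against 404600 and 582800. Markers of nerve and glia were higher on both arrays in 8 of 10 genes and 1 passed, with a median of 0.36 and sums of 248500 in both treated pools against 181100 and 193000. No marker of these lists was without signal. The part of these cell types in the values of *Bmp2*, *Bmp4*, *Bmp5*, *Bmper* and *Tll1* was not tested.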

How the data were processed

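Deposited scanner files of 2 two-colour Agilent arrays (design 084956) were used. Per the file headers, Feature Extraction 12.2.0.7 had written them, whereas the submitters' processing notes name version 10.7.3.1. They hold, for both channels, the unnormalized intensity of every spot and its local background, a processed intensity (background-corrected and dye-normalized by the software), and marks for outlier spots and for signals well above background. The deposited table of the series holds another unit, a signed fold (treated against control), and served as an alternative. Probe positions are those of the files (mm9).

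R 4.3.3 and limma 3.58.1 were used. Mean intensities were corrected by normexp with an offset of 50, and log2 ratios by loess within each array. Outlier spots were dropped and the 4 spots of a probe averaged. A probe was kept, and is said to have signal, if on both arrays the treated channel, or on both the control channel, had more than a share of 0.5 of spots well above background. Of 39429 probes, 26947 were kept. Ratios were signed by the dye swap and fitted with lmFit and eBayes of limma, with 1 residual degree of freedom per probe. A gene list used the brightest kept probe of each gene. For a probe with dim treated channels, the fall was also computed from the lowest signal well above background on each array. The filter of at least 2-fold and an intensity of 100 used the processed intensities and is modelled on the study's methods. The procedure was tested on simulated spots. The members and the gene lists were chosen with earlier results of these data known. All probes of the members are named, and of the other lists the genes past FDR 0.05 and a few others, chosen after their values were seen. Alternatives changed background correction, normalization, filter, probe choice, outlier spots, prior and model. P-values rest on the spread between the ratios of 2 arrays, each with 1 treated and 1 control pool. In eBayes this spread was moderated towards that of all tested probes, with 6.47 prior degrees of freedom.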

Additional observations from a re-analysis of the deposited data

How the results depend on the processing

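Under the 11 alternatives that gave values, no member called in limma changed sign. Changes of the filter, the probe choice, the prior or the model left these ratios as they were. In those alternatives the sign could not change. Bmp4 at base 1738 ran from -0.76 to -0.73, Bmp5 from -0.89 to -0.80, Bmper from -0.74 to -0.71 and Tll1 at base 4868 from -4.13 to -3.78. The uncalled probe of Tll1 at base 503, which was kept through its control channels alone, passed in 5 alternatives and ran from -1.45 to -0.32. The counts at FDR 0.05 in limma depended on the processing, and the causes were not tested unless named. With processed intensities 120 probes were higher, and the Tll1 probe difference was -2.67. Without background correction this difference was -3.28 (from -3.31). With arrays centred on their median, 120 probes were lower and 16 higher (88.2% lower, against 59.9%), 1 member probe and a Tll1 difference of -3.36. Testing 39390 probes without the filter, which adds dim probes, gave 146 lower and 27 higher (84.4% lower) and 2 member probes. With 1 probe per gene, which leaves 20119 tests, 123 were higher. A prior with a trend on intensity and robust estimation gave 356 higher. The deposited fold changes, rounded to 1 decimal, gave 1770 lower, 1289 higher, 2 member probes (Tll1 at base 4868 and Bmp1 at base 2645) and a Tll1 difference of -3.81. Of 3 alternatives chosen after seeing the data, the trend alone gave 361 higher, the median of spots a Tll1 difference of -3.26, and the separate channels with a dye term 0 lower, 0 higher and 0 member probes in limma at FDR 0.05, with 812 and 1035 at an unadjusted p under 0.05. The separate-channel model with a within-spot correlation was not run, since this correlation was estimated as 1 and the model could not be fitted. The filter gave 203 lower probes and 3 member probes at 1.5-fold, 21 lower at 3-fold, and 30 lower and 0 member probes when 100 was asked of both channels. Without 1 replicate it gave 81 to 152 lower probes, 81 without replicate 1 and 152 without replicate 2, and the Tll1 probe at base 4868 each time. Treated and control pools were already paired within each array, so no replicate block could be added. Without a replicate, limma has no residual degree of freedom and the FDR counts have no value. Signals near background limit Tll1 at base 503, Chrd at base 1887 and Bmp4 at base 1931.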
